A study of Mus musculus with 58 samples.

Results

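The interferon-inducible GTPases of the IRG and GBP families were followed in microglia of SgshKO and wild-type (WT) mice. The 8 members were taken by symbol: 4 immunity-related GTPases (IRGs), Irgm1, Irgm2, Igtp and Iigp1, and 4 guanylate-binding proteins (GBPs), Gbp2, Gbp3, Gbp5 and Gbp7. They are 8 of the 24940 genes listed in the age-series count table, and all 8 were among the 14309 genes with enough counts to be tested there. The WT antisense table of 10277 genes and the SgshKO antisense table of 10589 genes hold 7 of them, all but Iigp1. Irgm2 was chosen by its measured differences: it was lower in SgshKO at 4 months and higher at 8 months. Its differences at those ages, and the change between them, are therefore given as a description with no test, and the question was whether the other 7 members share them.

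All libraries are bulk polyA RNA-seq of C57BL/6 forebrain microglia sorted as CD11b+/CD45low/CX3CR1+. SGSH is a lysosomal sulfatase of heparan sulfate breakdown, and SgshKO mice model a lysosomal storage disease; the allele is not given in the sources used here. The age series holds untreated WT and SgshKO microglia at 3 weeks (3 and 4 libraries), 4 months (2 and 2) and 8 months (4 and 7). A second set holds WT mice that received PBS, a non-targeting control antisense oligonucleotide (ASO), or an ASO to lower Mitf, Tfeb or Tfe3 separately, with 4 libraries each. Another set holds SgshKO mice that received the control ASO or Mitf plus Tfe3 ASO, with 8 libraries each in 2 numbered groups ("grp" in the sample names). Mitf, Tfeb and Tfe3 encode related transcription factors of lysosomal and autophagy genes; ASOs were injected into the cerebral ventricles and microglia were collected 14 days later. The labels give neither the sex of any mouse nor the age of ASO-treated mice, and do not say that libraries came from separate animals, so p-values measure the spread between these libraries.

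IRGs and GBPs are GTPases that cells make in large amounts after exposure to interferon, above all interferon-gamma. Effector IRGs such as Iigp1 and GBPs assemble on the vacuoles of intracellular pathogens and on damaged membranes, and GBPs also help caspase-dependent inflammasomes to form. The regulatory IRGs Irgm1, Irgm2 and Igtp (also called Irgm3) sit on host membranes and hold the effectors in an inactive state, and Irgm1 is also tied to autophagy and lysosomes. Interferon acts on their promoters through the interferon-stimulated response element (ISRE), which IRF1 can bind, and the gamma-activated site (GAS).

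The promoters of Irgm2, of its neighbour Igtp, and of Gbp3 and Gbp7 are shown because the regulatory letters they share can be set beside the values that follow. The promoter of the effector IRG among the members was not examined. RefSeq promoters on GRCm38.p6, from 250 bases before to 50 bases after each transcript start, were taken for the other 7 members. They were searched on both strands for the ISRE core, which is GAAA, any 2 bases and GAAA again, and the GAS letters TTCNNNGAA. Matches may overlap each other. The ISRE core lay in a promoter of all 7, against 3.99% of 27025 genes with the core in any of their promoters. GAS letters lay in those of Gbp5, Gbp7, Igtp and Irgm2, against 9.55% of genes. The letters CACGTG (8.09% of genes) and TCATGTG (4.31%), which MITF-family factors can bind, were in no promoter of the 7. The stretches below hold the ISRE core in capitals, and where capitals begin with TTTC the core is on the opposite strand. Irgm2 lies at chr11:58214873-58214962, Igtp at chr11:58199482-58199555, Gbp3 at chr3:142559962-142560043 and Gbp7 at chr3:142530243-142530332, all on the plus strand.
Irgm2: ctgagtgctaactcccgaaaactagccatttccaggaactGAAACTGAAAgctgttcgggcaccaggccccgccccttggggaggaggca
Igtp: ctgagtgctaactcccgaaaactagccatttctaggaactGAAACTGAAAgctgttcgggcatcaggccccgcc
Gbp3: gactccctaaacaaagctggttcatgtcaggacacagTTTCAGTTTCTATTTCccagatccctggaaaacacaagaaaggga
Gbp7: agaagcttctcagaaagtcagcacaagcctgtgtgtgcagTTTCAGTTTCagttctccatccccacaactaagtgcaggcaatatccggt
The Irgm2 and Igtp promoters were 74.3% identical over 335 aligned positions, with a longest shared run of 61 bases, and other pairs of members reached at most 52.9%. In Gbp3 the capitals hold 2 overlapping matches, and a second Gbp3 start in the same table holds none. A match is a description of letters, not of binding.

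On GRCm38 (mm10) the age-series table places Igtp (chr11:58199556-58207592) and Irgm2 (chr11:58214977-58222783) side by side, with the related IRG Gm12250 (chr11:58183843-58190198) just before them. Irgm1 lies elsewhere on the same chromosome (chr11:48865245-48871420). The GBP members form a cluster on chromosome 3 in the order Gbp5 (chr3:142496934-142522344), Gbp7 (chr3:142530336-142550151), Gbp3 (chr3:142560044-142573213) and Gbp2 (chr3:142620663-142638008). Irgm1 is on the minus strand and the other 6 of these members are on the plus strand.

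Age-series libraries held 8191508 to 27106584 counts in total, those of the WT ASO set 14372015 to 30378870 and those of the SgshKO ASO set 12517838 to 30431437. The Sgsh transcript was still present in SgshKO libraries, at 20.1 to 34.7 normalised read counts (CPM, which scale each library to a common size) at 8 months against 31.9 to 59.2 in WT (log2 fold change -0.74, adjusted p = 5.8e-04). The 10 microglial markers were abundant in all age-series libraries, at summed levels of 30498 to 57607 CPM, yet 8 of 10 were lower in SgshKO at 4 months and again at 8 months. Of 10 monocyte and neutrophil markers, 8 were higher in SgshKO at each of those ages: their summed level was 10.3 to 17.7 CPM in WT libraries of every age and 7.70 to 36.8 in SgshKO at 3 weeks, but 3039 and 14938 in SgshKO at 4 months and 443 to 5849 at 8 months. Summed border-macrophage markers were 9.57 to 32.1 CPM in WT and 62.3 to 124 CPM in SgshKO at 4 and 8 months, while T and NK cell markers stayed at or below 6.28 CPM in sum, with Gzma and Gzmb at 0 counts in every group. Ly6c2, a monocyte marker, was at 0 in WT at 4 months, and Clec10a, a border-macrophage marker, in WT at 3 weeks and 8 months. Other sums were lower in SgshKO at 8 months. Endothelial markers summed to 38.8 to 59.0 CPM there, below every WT library (67.0 to 74.3 CPM). Astrocyte markers summed to 175 to 296 CPM, against 286 to 403 CPM for WT, with overlap. Single genes were split: 2 of 6 endothelial markers tested were called higher and 2 lower, and 3 of 6 astrocyte markers higher and 1 lower. Beside these marker counts, 21.6% of all genes tested were called higher and 18.9% lower at 8 months, and 19.5% in either direction at 4 months. Xist, made by the inactive X chromosome of females, was at 1259 to 2386 CPM in all 3-week libraries, in 1 library of each genotype at 4 months, and at 8 months in 0 of 4 WT and 3 of 7 SgshKO libraries, and at or below 19.2 CPM in the others. All these values moved with genotype or age beside the results that follow, and their part in them was not tested beyond the refits named. In bulk RNA a smaller share of cells that express a gene cannot be told apart from less RNA per cell.

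Per transcript length, Irgm1 was the most abundant member in 5 of the 6 age-series groups, and Irgm2 led in WT at 3 weeks. The mean level there was 60.3 ± 1.7 TPM (SD, n = 3; TPM is a library-scaled level divided by transcript length) for Irgm2, 48.8 ± 1.0 for Irgm1, 39.0 ± 3.6 for Igtp and 28.7 ± 0.61 for Gbp7. Gbp5 (11.6 TPM), Gbp3 (9.84), Gbp2 (3.87) and Iigp1 (0.678) were lower. In WT at 8 months the order had changed: Irgm1 stood at 73.2 ± 10.2 TPM (SD, n = 4), Gbp7 at 49.0 ± 23.6, Igtp at 24.5 ± 4.6, Gbp5 at 17.4, Gbp3 at 16.4 and Irgm2 at 15.2 ± 2.5. Neighbours from Igtp down to Irgm2 overlapped from library to library in that order. In SgshKO at 8 months Irgm2 was again second, with 30.5 ± 3.3 TPM (SD, n = 7), close to Igtp with 28.0 ± 3.1 and below Irgm1 with 57.5 ± 8.5, and Gbp7 had a mean of 17.9 ± 6.1.

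Irgm2, one of the regulatory IRGs, was lower at each later age in WT microglia, while in SgshKO it was lower at 4 months than at 3 weeks and higher again at 8 months. Its level at 3 weeks was 140.5, 134.8 and 136.9 CPM in WT and 97.3, 113.1, 103.5 and 91.8 CPM in SgshKO. At 4 months it was 74.8 and 67.6 CPM in WT against 40.6 and 42.0 CPM in SgshKO. At 8 months it was 31.8, 31.1, 31.7 and 41.5 CPM in WT, while the 7 SgshKO libraries ran from 61.2 through a median of 76.8 to 82.6 CPM. The genotypes did not overlap at any age, and their order was turned round at 8 months. From high to low, the group means were WT 3 weeks (137.4 CPM), SgshKO 3 weeks (101.4), SgshKO 8 months (75.4), WT 4 months (71.2), SgshKO 4 months (41.3) and WT 8 months (34.0). SgshKO at 8 months and WT at 4 months overlapped, and WT library 4 at 8 months (41.5 CPM) fell among the SgshKO libraries of 4 months. The 3-week difference, which the choice of Irgm2 did not use, was -0.44 ± 0.10 on the log2 scale (± SE, adjusted p = 0.0061), lower in 4 of 4 SgshKO libraries. The values that chose it were -0.78 ± 0.14 at 4 months and 1.15 ± 0.09 at 8 months, a change of 1.94 ± 0.17.

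**Figure D1:**
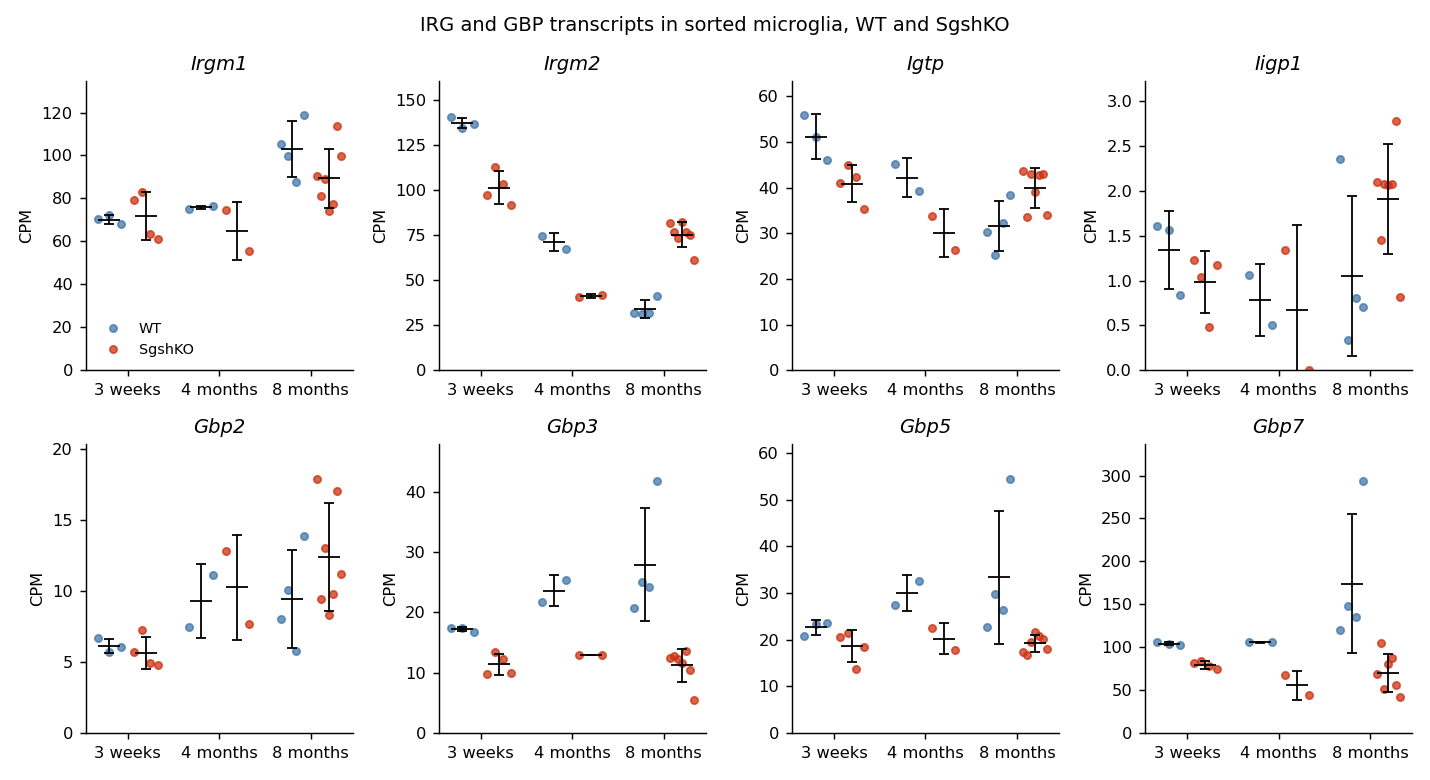
Level of each member (CPM, vertical axis from 0) in every age-series library at 3 weeks, 4 months and 8 months, with WT in blue and SgshKO in red; horizontal bars are group means and whiskers ± SD (n = 2 to 7 libraries; the whisker of Iigp1 in SgshKO at 4 months runs below the axis). Mean Irgm2 goes from 137.4 to 34.0 CPM in WT and stands at 75.4 CPM in SgshKO at 8 months, while Gbp3, Gbp5 and Gbp7 at 8 months lie lower in all SgshKO libraries than in any WT library.

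Igtp, the neighbour of Irgm2 and also a regulatory IRG, had the same signs as Irgm2 at each age, with smaller differences. Its level was 56.0, 51.1 and 46.1 CPM in WT and 40.9, 44.9, 42.3 and 35.4 CPM in SgshKO at 3 weeks. At 4 months it was 45.2 and 39.2 CPM in WT and 33.7 and 26.3 CPM in SgshKO. At 8 months WT libraries had 30.3, 25.3, 32.3 and 38.5 CPM, and SgshKO libraries ran from 33.5 through 42.7 to 43.6 CPM. SgshKO lay below WT without overlap at 3 weeks and at 4 months, and mostly above it, with overlap, at 8 months. The log2 fold change was -0.32 ± 0.13 at 3 weeks (adjusted p = 0.17) and -0.49 ± 0.18 at 4 months (adjusted p = 0.061), neither past 0.05. At 8 months it was 0.34 ± 0.11 (adjusted p = 0.018), a fold of 1.27. That call was lost without WT library 2 of 8 months (0.24, adjusted p = 0.11), on the TPM scale (0.19, adjusted p = 0.15, limma on log2 of TPM + 1), and with a term for the ratio of the sex-linked transcripts Ddx3y and Xist (0.30, adjusted p = 0.061), a fit chosen after seeing the data. The difference between the 8-month and 3-week effects was 0.66 ± 0.18 (adjusted p = 0.017), though not past the threshold without WT library 1 of 3 weeks (0.58, adjusted p = 0.067). The difference between the 8-month and 4-month effects, the one that set Irgm2 apart, was 0.83 ± 0.21 (edgeR, adjusted p = 0.097), in the direction of Irgm2 but not past the threshold. It passed without SgshKO library 1 of 4 months (1.05, adjusted p = 0.047; the 1 library left in that group is assumed to vary like those of the other groups), WT library 4 of 8 months (0.93, adjusted p = 0.040) or SgshKO library 2 of 8 months (0.87, adjusted p = 0.049), and with DESeq2 (0.81, adjusted p = 0.032).

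Irgm1, the autophagy-linked regulatory IRG, had no difference between genotypes that passed edgeR's test as reported, though its 8-month value passed in several other settings. It stood at 70.2, 72.3 and 67.9 CPM in WT and 79.5, 83.2, 63.6 and 60.9 CPM in SgshKO at 3 weeks, and at 75.3 and 76.4 CPM against 74.4 and 55.4 CPM at 4 months. At 8 months WT libraries had 105, 99.9, 87.7 and 119 CPM, and SgshKO libraries ran from 74.2 through 89.3 to 114 CPM. The groups overlapped at 3 weeks and 8 months. The log2 fold changes were 0.04 ± 0.14, -0.23 ± 0.18 (adjusted p = 0.43) and -0.20 ± 0.11 (adjusted p = 0.15), and the 95% interval at 8 months ran from -0.42 to 0.02. The last value passed without SgshKO library 6 of 8 months (-0.28, adjusted p = 0.036), with the replicate number as a block (-0.30, adjusted p = 0.047), with the Ddx3y to Xist term (-0.34, adjusted p = 0.017) and with limma on log2 of TPM + 1 (-0.35, adjusted p = 0.016). The difference between its 4-month and 8-month effects was 0.03 ± 0.22, with a 95% interval from -0.40 to 0.45.

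Iigp1, the effector IRG on chromosome 18, was near the detection limit, with 0 to 2.78 CPM in the age series. SgshKO libraries at 8 months had 0.813 to 2.78 CPM and WT libraries 0.339 to 2.36 CPM, with overlap. Its log2 fold change there was 0.88 ± 0.61 (adjusted p = 0.26). At 3 weeks it was -0.42 ± 0.72 (adjusted p = 0.84) and at 4 months -0.27 ± 1.06 (adjusted p = 0.89). These are the signs of Irgm2, but with wide errors, and the 4-month sign turned in some fits without 1 library. The change from the 4-month to the 8-month effect was 1.14 ± 1.22 (adjusted p = 0.79). At 4 months 1 of 2 SgshKO libraries held 0 counts, and without the other library Iigp1 was called lower (adjusted p = 0.032) on that library alone, so a change in its effect between ages was not detectable at this depth.

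Of the GBP members, 3 were lower in SgshKO than in WT at 8 months, where Irgm2 was higher. Gbp3, Gbp5 and Gbp7 were each lower in all 7 SgshKO libraries than in any WT library. Gbp7 had 119.7, 148.0, 134.7 and 293.7 CPM in WT, and 42.3 to 105.0 CPM with a median of 69.0 in SgshKO, a log2 fold change of -1.31 ± 0.21 (adjusted p = 1.5e-05). Gbp3 had 20.7, 25.1, 24.2 and 41.8 CPM in WT, and 5.42 to 13.6 CPM with a median of 12.3 in SgshKO, a log2 fold change of -1.30 ± 0.18 (adjusted p = 3.3e-06). Gbp5, which promotes NLRP3 inflammasome assembly, had 22.8, 29.8, 26.4 and 54.3 CPM in WT and 16.6 to 21.7 CPM with a median of 19.5 in SgshKO, a log2 fold change of -0.79 ± 0.17 (adjusted p = 5.1e-04). WT library 4 was the highest of its group for all 3 genes. It also stood apart in the summed type I interferon targets, with 993 CPM against 498 to 571 CPM in the other WT libraries of 8 months in the age series, and in Socs3, a feedback inhibitor of cytokine signalling (975 against 189 to 429 CPM, named after its values were seen). Without it the 3 log2 fold changes were -0.97 (Gbp7, adjusted p = 1.0e-04), -1.08 (Gbp3, adjusted p = 2.3e-05) and -0.49 (Gbp5, adjusted p = 0.0045). All 3 stayed past the threshold in each of the 22 fits that left out 1 library, and with the Ddx3y to Xist term.

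Gbp2, the remaining GBP member, was not called at any age. It had 8.05, 10.04, 5.80 and 13.9 CPM in WT and 8.33 through 11.2 to 17.9 CPM in SgshKO at 8 months, with a log2 fold change of 0.41 ± 0.24 (adjusted p = 0.18). The groups overlapped at every age.

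At younger ages the 3 GBPs had negative values that did not pass the test as reported, though some passed in other settings. At 3 weeks Gbp7 passed in edgeR with only the ages compared in the fit (adjusted p = 0.0040). Gbp3 passed in that fit and with the replicate number as a block (edgeR, lower adjusted p of the 2 fits = 0.019). Gbp7 at 3 weeks was 106.5, 103.8 and 102.4 CPM in WT and 81.4, 83.4, 77.7 and 73.9 CPM in SgshKO, and at 4 months 105.4 and 106.4 against 67.7 and 43.8 CPM, without overlap at either age. Its log2 fold changes were -0.40 ± 0.26 (adjusted p = 0.46) and -0.93 ± 0.35 (adjusted p = 0.063). Gbp3 was 17.5, 17.4 and 16.8 against 9.83, 13.4, 12.3 and 10.01 CPM at 3 weeks, and 21.7 and 25.4 against 12.96 and 12.98 CPM at 4 months. Both ages again showed no overlap, and the values were -0.60 ± 0.23 (adjusted p = 0.13) and -0.86 ± 0.31 (adjusted p = 0.053), the first of which passed without SgshKO library 7 of 8 months (-0.59, adjusted p = 0.044). Gbp5 was 27.3 and 32.6 CPM against 22.5 and 17.8 CPM at 4 months (-0.58 ± 0.28, adjusted p = 0.16). At 4 months several settings moved these calls: without WT library 4 of 8 months, Gbp3 (-0.89, adjusted p = 0.020), Gbp5 (-0.60, 0.032), Gbp7 (-0.95, 0.014) and Igtp (-0.51, 0.029) passed. Gbp3 and Gbp7 also passed without SgshKO library 2 or 7 of 8 months, Gbp3 without WT library 1 of 8 months (-0.86, adjusted p = 0.047), and Igtp without WT library 2 (-0.49, adjusted p = 0.044) or SgshKO library 2 of 8 months (-0.51, adjusted p = 0.035). At the same age, without SgshKO library 1 of 4 months the Gbp7 value was -1.31 (adjusted p = 0.041) and the Igtp value -0.71 (adjusted p = 0.029), with 1 SgshKO library left at that age and the spread taken from the other groups. The change of the effect between 4 and 8 months was -0.44 ± 0.36 for Gbp3, -0.21 ± 0.33 for Gbp5 and -0.38 ± 0.41 for Gbp7, none past the threshold.

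Counted over the family, Irgm2's pattern of lower at 4 months and higher at 8 months was not called for any other member. At 3 weeks 1 of 8 members was called, against 9.03% of all genes tested, and 4 of 8 were lower without overlap of the libraries (11.6% of genes). At 4 months edgeR called 0 of the 7 members other than Irgm2 (19.5% of all genes), 4 of which had an unadjusted p under 0.05 and 1 of which (Gbp3) DESeq2 called, and 5 of the 7 were lower without overlap of the libraries, where 28.3% of all genes were lower in that sense. At 8 months 4 of these 7 were called (40.5% of all genes), 1 higher (21.6%) and 3 lower (18.9%); 0 were higher (14.0% of genes) and 3 were lower (11.2%) without overlap. For the change between the 4-month and 8-month effects edgeR called 0 of these 7 (0.391% of genes); 1 (Igtp) had an unadjusted p under 0.05, and DESeq2 called that 1. For the change between 3 weeks and 8 months Igtp was the 1 of these 7 that was called (9.25% of genes). Gbp7 was called too (-1.05, adjusted p = 0.034) without SgshKO library 2 of 8 months. Between 3 weeks and 4 months edgeR called 0 members (2.52% of genes), 0 had an unadjusted p under 0.05, and DESeq2 called 0. The IRG members other than Irgm2 had a median log2 fold change of -0.32, -0.27 and 0.34 at the 3 ages, of which the second is the value of the sparse Iigp1, and the GBP members had -0.34, -0.72 and -1.05, against -0.02, 0.02 and 0.02 over all genes. Besides Irgm2, which was chosen for that order, Galnt10 and Slc16a11 were called lower at 4 months and higher at 8 months. Another 6 genes were called in the opposite order. The 3 comparisons between genotypes use separate libraries, but the 2 interactions with 8 months share those of 8 months.

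**Figure D2:**
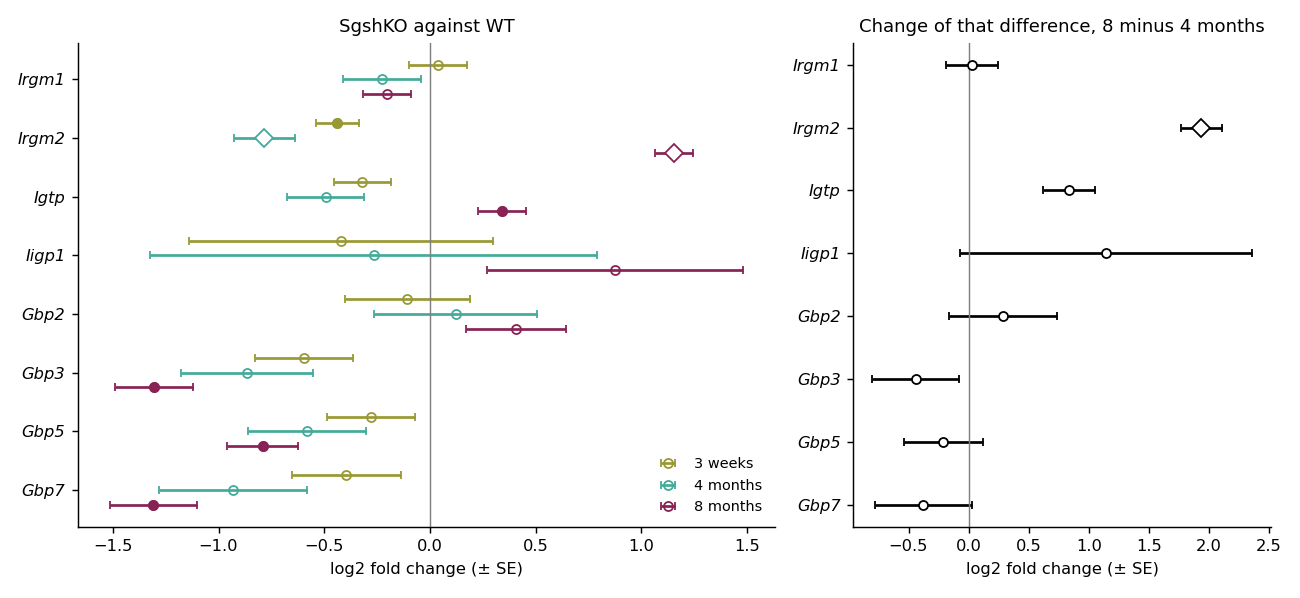
Left, log2 fold change of SgshKO against WT for each member at 3 weeks, 4 months and 8 months; right, the 8-month difference minus the 4-month difference; whiskers are ± SE. Filled circles passed an adjusted p of 0.05 and open circles did not, while open diamonds mark the Irgm2 values that led to its choice and have no test. Igtp lies on the side of Irgm2 at each age, as does the sparse Iigp1 with wide whiskers. Gbp3, Gbp5 and Gbp7 lie on the negative side at all 3 ages.

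Within a genotype, Irgm2 had the largest difference of the members in each age step but 1, from 4 to 8 months in SgshKO, where the sparse Iigp1 had 1.59 ± 0.89 on the log2 scale (not called). In WT it changed by -0.95 ± 0.13 (log2) from 3 weeks to 4 months and by -1.07 ± 0.12 from 4 to 8 months, and in SgshKO by -1.30 ± 0.13 and then 0.87 ± 0.12. These are given as a description, since they use the libraries that chose the gene. None of the other 7 members passed in WT, against 5.21% of genes for the first step and 5.77% for the second; 0 and 3 of them (Irgm1, Igtp and Gbp7) had an unadjusted p under 0.05, and DESeq2 called none of them. In SgshKO Igtp was called for the first step (-0.45 ± 0.16, adjusted p = 0.034, 32.7% of genes called) and Irgm1 for the second (0.47 ± 0.15, adjusted p = 0.033, 19.8% of genes called). Neither passed without SgshKO library 2 of 4 months (-0.33, adjusted p = 0.29, and 0.30, adjusted p = 0.37), a fit in which 1 SgshKO library of that age is left and the spread comes from the other groups. The Igtp call of the first step was also lost without SgshKO library 2 (-0.40, adjusted p = 0.080) or 3 of 3 weeks (-0.43, adjusted p = 0.057). In WT, Igtp passed for the second step without library 4 of 8 months (-0.52, adjusted p = 0.045). In SgshKO, Igtp passed for the second step without SgshKO library 1 of 4 months, WT library 2 or 4 of 8 months, or SgshKO library 2 or 7 of 8 months (0.41 to 0.64), and Gbp2 for the first step without SgshKO library 2 of 3 weeks, WT library 3 or 4 of 8 months, or SgshKO library 1 or 4 of 8 months (0.82 to 0.98).

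Among the other genes of the family, the IRG Gm12250 beside Igtp stood closest to Irgm2 in its 8-month difference. It had 5.55, 6.30, 5.52 and 5.48 CPM in WT and 9.57 to 17.2 CPM in SgshKO at 8 months, without overlap, and a log2 fold change of 1.17 ± 0.19 (adjusted p = 1.8e-05). At 4 months it was 7.45 and 9.18 CPM against 5.26 and 9.11 CPM (-0.20 ± 0.30, adjusted p = 0.69). The change of effect was 1.37 from 4 to 8 months (adjusted p = 0.093) and 1.48 from 3 weeks to 8 months (adjusted p = 0.0013).

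Of the 10 other IRG genes tested, 5 were higher (21.6% of all genes) and 0 lower (18.9%) in SgshKO at 8 months. The median log2 fold change of the 10 was 0.75. Of the 5 called higher, 3 are sparse. Besides Gm12250 the genes called higher were 9930111J21Rik1 (0.45 ± 0.10, without overlap of the libraries) and the sparse genes Gm4951 (2.08 ± 0.46), F830016B08Rik (3.45 ± 0.86) and Tgtp2 (2.93 ± 0.88), each of these 3 below 8 CPM in every library. Ifi47, an effector-like IRG, was called lower at 4 months, where both SgshKO libraries held 0 counts and WT had 0.591 and 1.15 CPM. At 8 months its libraries overlapped, at 0.354 to 1.04 CPM in WT and 0.0903 to 3.53 CPM in SgshKO (1.06 ± 0.64, adjusted p = 0.20). Tgtp1, Irgq, Gm5431 and 9930111J21Rik2 were not called in any comparison between the genotypes, and Irgc1 had too few counts to be tested.

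Of the 6 other GBP genes tested, Gbp6 was called higher at all 3 ages. It was 0 to 0.430 CPM in WT libraries and 0.666 to 1.94, 2.15 to 5.01 and 3.03 to 6.38 CPM in SgshKO at 3 weeks, 4 months and 8 months, with log2 fold changes of 2.86 ± 0.69 (adjusted p = 0.0073), 3.33 ± 0.82 (0.0049) and 4.46 ± 0.57 (7.7e-07). Gbp8 was called higher at 4 months, at 4.03 and 5.76 CPM against 0.827 and 1.29 CPM (2.18 ± 0.58, adjusted p = 0.0093), but had a value of 0.19 ± 0.33 at 8 months, where WT library 4 reached 7.43 CPM. Gbp9 (-0.24 ± 0.11 at 8 months), Gbp4 (0.94 ± 0.42) and the locus listed as both Gvin1 and Gm4070 with identical counts (0.54 ± 0.23) were not called at any age. Gbp2b, Gbp10 and Gbp11 had too few counts to be tested. Several of these are near-identical paralogs, and their levels differ between the tables, so how reads were shared among copies is uncertain.

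At 8 months most type I interferon targets and other interferon-gamma targets were higher in SgshKO than in WT. Beside the counts that follow, 9.03%, 19.5% and 40.5% of all genes were called in either direction at 3 weeks, 4 months and 8 months. At 8 months 21.6% of all genes were called higher and 18.9% lower. Of 32 type I interferon targets 0 were called at 3 weeks, 11 higher and 0 lower at 4 months, and 29 higher and 0 lower at 8 months (median log2 fold change 1.82). Examples at 8 months were Ifi27l2a (3.47 ± 0.30) and the antiviral membrane protein gene Ifitm3 (3.50 ± 0.30), and at 4 months Ifitm3 (2.55 ± 0.45) and Oas3 (3.97 ± 0.99). Of 22 other interferon-gamma targets 5, 8 and 17 were higher and 0, 1 and 0 lower at the 3 ages. They include the antigen-presentation genes H2-D1 (2.20 ± 0.12 at 8 months), H2-Aa (4.61 ± 0.28) and B2m (1.30 ± 0.09). The 0 calls at 3 weeks are by edgeR's test, and 9 of the 32 type I interferon targets had an unadjusted p under 0.05 there. At both later ages the monocyte and neutrophil marker sums given above were higher as well.

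In the interferon-gamma pathway itself the directions were split. Ifngr1, the ligand-binding receptor chain, was lower in SgshKO than in WT at all ages, by 0.35, 0.80 and 0.73 on the log2 scale. Irf1, which encodes a transcription factor of interferon responses, had values of -0.08, -0.27 and -0.23 and was not called. At 8 months 4 of 12 genes of the list were higher (21.6% of all genes), among them the phosphatase gene Ptpn6 (0.50 ± 0.08), and 5 were lower (18.9%). Of the 8 type I interferon signalling genes tested, Irf7 (1.36 ± 0.26) and the receptor gene Ifnar2 (0.23 ± 0.07) were higher at 8 months, beside 21.6% of all genes. Irf5 was lower at 4 months (-0.75 ± 0.12) and 8 months (-0.44 ± 0.07), beside 18.9% of all genes called lower at 8 months.

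Genes whose products work with these GTPases were also followed. Of 10 genes of the ATG8 conjugation machinery, which places IRGs and GBPs on membranes, 3 were higher and 0 lower at 3 weeks, 3 higher and 1 lower at 4 months, and 5 higher and 1 lower at 8 months, beside 9.03%, 19.5% and 40.5% of all genes called in either direction. Gabarap (0.93 ± 0.10, then 1.11 ± 0.06) and Gabarapl1 (0.77 ± 0.17, then 1.01 ± 0.11), both ATG8 proteins, led this list, with Map1lc3a at 8 months (0.67 ± 0.13) and Atg16l1 lower at 4 months (-0.49 ± 0.13). Among 8 inflammasome genes downstream of GBPs, Gsdmd, the pore-forming gasdermin, was lower in SgshKO by 0.53 and 0.40 (log2) at 4 and 8 months. Aim2 was lower by 0.25 at 8 months. Il1b was higher (3.11 ± 0.85 and 1.59 ± 0.50); it is also made in large amounts by neutrophils and monocytes, whose markers were higher in the same libraries.

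**Figure D3:**
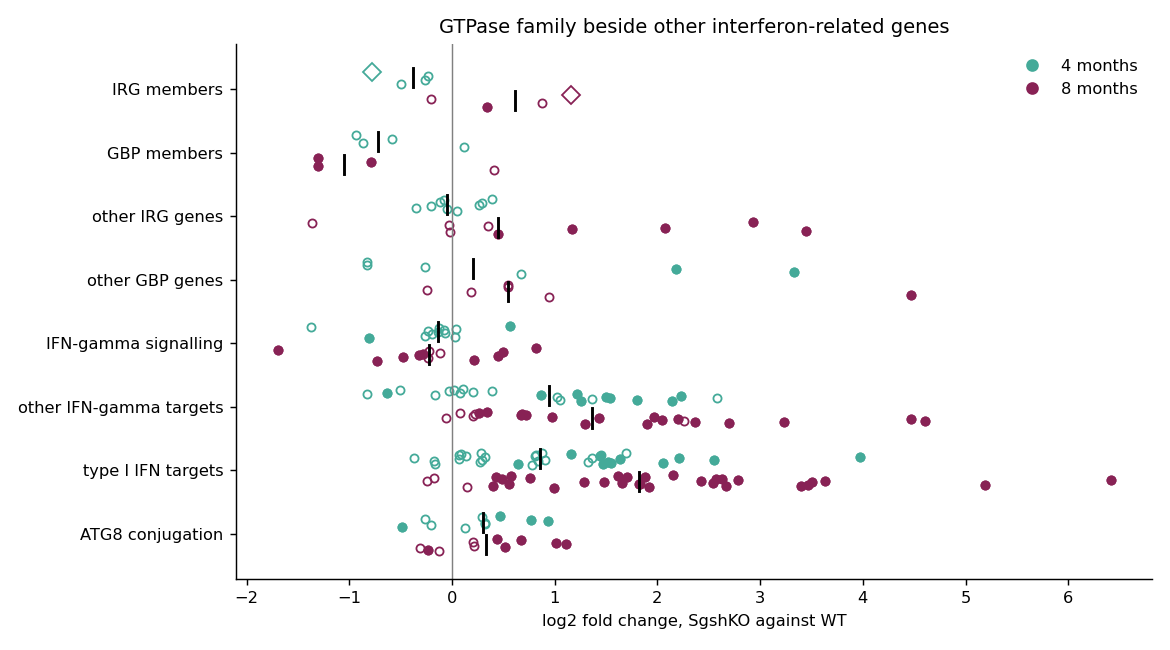
Log2 fold change of SgshKO against WT for the genes of each list at 4 months (green) and 8 months (purple), with vertical bars at the list medians; filled points passed an adjusted p of 0.05 and diamonds are Irgm2. Ifi47, with 0 counts in SgshKO at 4 months, is left out. At 8 months the GBP members have a median of -1.05 and the type I interferon targets a median of 1.82.

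The genes whose 6 age-series group means lay nearest to those of Irgm2 were Gm10037, Lbx2, Ribc1, Il4i1 and Hist3h2a, with root mean square differences of 0.212 to 0.238 log2 units among 14301 genes searched. The measure is a description over 6 means. Gm10037 and Ribc1 held no more than 1.38 CPM in any library and are too sparse for a comparison. Lbx2, a homeobox gene, had means of 2.80 and 1.42 CPM in WT and SgshKO at 4 months and 1.71 and 3.39 CPM at 8 months. Il4i1, an amino acid oxidase gene of myeloid cells, had 8.73 and 5.16 CPM, then 7.21 and 11.6 CPM. Igtp was the nearest member, at rank 131 (0.456 log2 units), and Iigp1 followed at rank 2892. Irgm1, Gbp2, Gbp3, Gbp5 and Gbp7 ranked between 9205 and 11412.

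In WT mice, no ASO produced a called change of a member. Each ASO lowered its target: Mitf ASO left 1.01 to 2.15 CPM of Mitf (log2 fold change -4.81), and Tfeb and Tfe3 changed by -3.24 and -2.38 under their own ASOs. The control ASO against PBS gave 0 called genes of 10277 with edgeR, of which 415 had an unadjusted p under 0.05, and DESeq2 called 0.0195% of genes; 0 members were called by either tool and 0 had an unadjusted p under 0.05. Against the control ASO, 0 of 7 members were called with Mitf ASO (11.0% of genes), Tfeb ASO (0.778%) or Tfe3 ASO (2.16%), with 2, 1 and 0 members at an unadjusted p under 0.05 and 0 called by DESeq2. The 2 with Mitf ASO were Irgm2 and Gbp5, and the 1 with Tfeb ASO was Gbp7.

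Irgm2 in these WT mice stood at 149.8, 182.1, 174.6 and 187.0 CPM with the control ASO and 133.2, 157.9, 163.4 and 158.5 CPM with Mitf ASO. The groups overlapped, although Mitf ASO was lower within each of the 4 replicate numbers, which mark the numbered groups in the sample names. The log2 fold change was -0.18 ± 0.07 (adjusted p = 0.089). It passed the threshold without PBS library 1 (adjusted p = 0.013), a library outside this comparison that was low for Irgm2 at 128.3 CPM against 184.0 to 196.4 CPM, and in a fit of the 2 groups alone (adjusted p = 0.026). Gbp5 had a value of -0.19 ± 0.08 with Mitf ASO (adjusted p = 0.14) and Gbp7 one of 0.40 ± 0.15 with Tfeb ASO (adjusted p = 0.24). Gbp7 had 40.6, 43.0, 48.5 and 57.7 CPM with the control ASO and 41.3, 57.5, 82.7 and 70.2 CPM with Tfeb ASO: the groups overlapped, and Tfeb ASO was higher within each of the 4 replicate numbers. Gbp5 was likewise lower with Mitf ASO within each number, at 20.9, 24.1, 24.99 and 26.1 CPM with the control ASO and 16.6, 21.7, 22.6 and 23.9 CPM with Mitf ASO.

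In SgshKO mice, Mitf plus Tfe3 ASO raised Gbp2, Gbp3 and Gbp7, and none of the 7 members was called lower. The 3 of 7 called higher stand against 4.84% of 10589 genes (9.33% were called in either direction). With the mixture Mitf fell by 2.26 and Tfe3 fell by 1.08 on the log2 scale. Gbp3 ran from 5.27 through 6.46 to 9.01 CPM in the 8 control-ASO libraries and from 8.09 through 9.69 to 10.8 CPM in the 8 treated ones, a log2 fold change of 0.45 ± 0.11 (adjusted p = 0.016). Gbp2 ran from 6.49 through 9.93 to 12.6 CPM and from 8.64 through 12.9 to 16.2 CPM (0.40 ± 0.10, adjusted p = 0.021). Gbp7 ran from 17.5 through 34.3 to 43.0 CPM and from 27.2 through 44.7 to 54.6 CPM (0.48 ± 0.12, adjusted p = 0.022). Libraries of the arms overlapped for each of these genes when both numbered groups were pooled. Markers of other cells moved beside them: the 1 listed border-macrophage marker was called higher, at 116 to 183 CPM with the control ASO and 155 to 195 CPM with the mixture, and so was 1 of 4 oligodendrocyte markers (summed level 77.6 to 94.99 and 85.0 to 102 CPM). Of 7 monocyte and neutrophil markers 0 were called higher and 1 lower (summed level 5.44 to 568.4 and 4.14 to 361 CPM). The part of these markers in the result was not tested.

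The numbered groups differed in level, most of all for Gbp7, so each was also looked at alone. In group 2, Gbp7 was 35.2, 43.0, 33.8 and 38.6 CPM with the control ASO and 45.6, 52.8, 54.6 and 50.9 CPM with the mixture, without overlap (0.43, adjusted p = 0.015). In group 1 it ran from 17.5 through a median of 20.4 to 34.7 CPM against 27.2, 28.6, 34.1 and 43.7 CPM, with overlap (0.54, adjusted p = 0.18). Gbp3 differed by 0.44 (adjusted p = 0.17) in group 1 and 0.47 (adjusted p = 0.093) in group 2, and Gbp2 by 0.46 (adjusted p = 0.15) and 0.35 (adjusted p = 0.12). The size and sign of the 3 differences were thus alike in both groups, while only Gbp7 in group 2 passed alone. Without the group term, Gbp3 alone passed (adjusted p = 0.029).

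The regulatory IRGs stood nearer to 0 in this comparison when taken over both numbered groups. Irgm2 ran from 106.1 through 125.8 to 141.2 CPM with the control ASO and from 118.6 through 121.8 to 143.3 CPM with the mixture, with a log2 fold change of 0.02 (adjusted p = 0.87). Irgm1 had a value of -0.04, but its direction differed between the numbered groups. Its mean went from 96.5 CPM with the control ASO to 81.0 with the mixture in group 1, and from 77.2 to 86.6 in group 2. Mean Irgm2 likewise went from 134.7 to 129.8 CPM in group 1 and from 114.9 to 121.9 in group 2. Neither gene passed in any setting run. Igtp (0.16 ± 0.05, adjusted p = 0.061) and Gbp5 (0.20 ± 0.06, adjusted p = 0.058) lay just outside the threshold, and DESeq2 called both (adjusted p = 0.047 and 0.041). Gbp5 passed without control-ASO library 2 of group 1 or of group 2 (0.23, adjusted p = 0.049 each), and Igtp without treated library 1 of group 2 (0.18, adjusted p = 0.039). Other interferon genes were also higher: 19 of 27 type I interferon targets rose and 0 fell (median 0.45), against 4.84% of all genes called higher. Of the other family genes, Gvin1 was called higher (0.48 ± 0.11, adjusted p = 0.011), and Gm12250 (0.35 ± 0.13, adjusted p = 0.088) and Gbp6 (0.15 ± 0.20) were not.

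**Figure D4:**
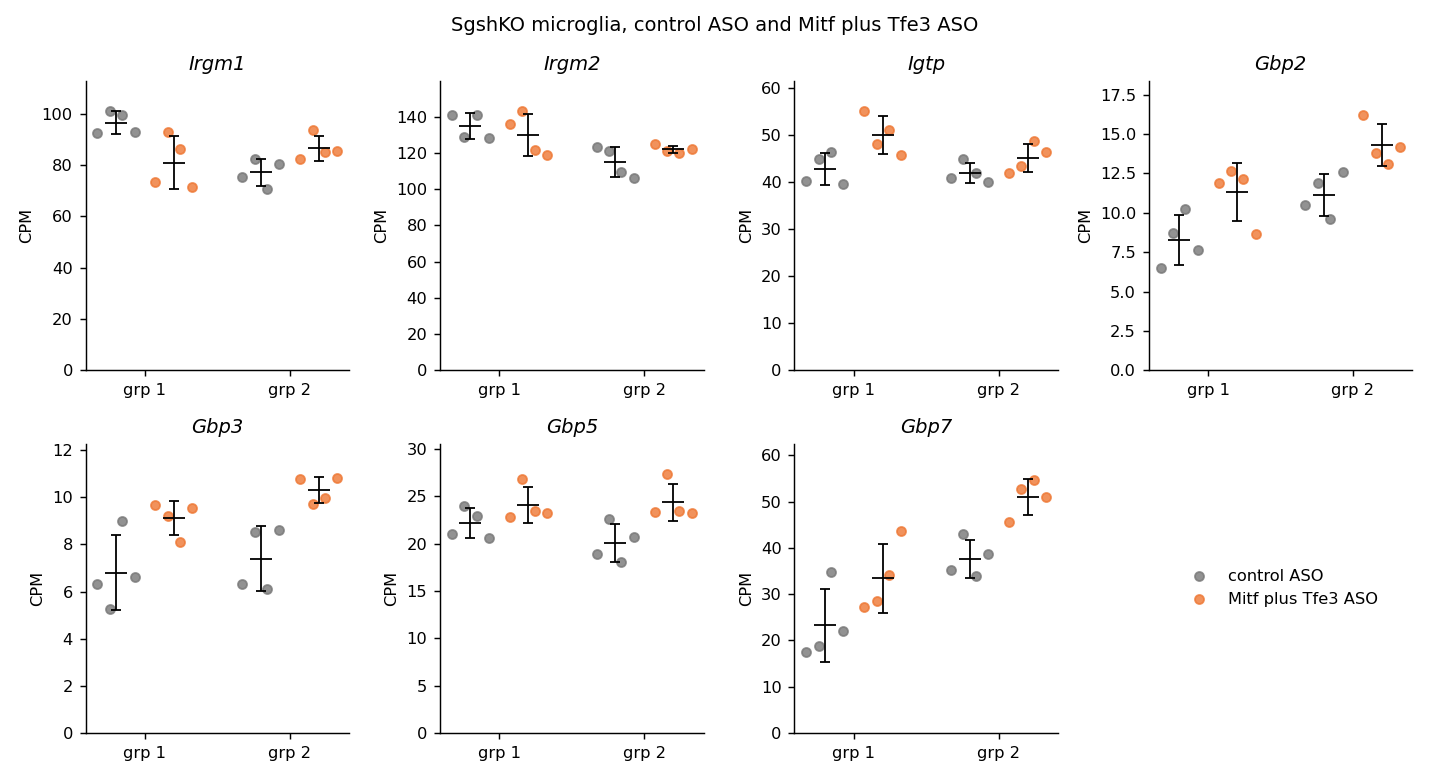
Level of the 7 listed members (CPM, vertical axis from 0) in every SgshKO library with the control ASO (grey) or Mitf plus Tfe3 ASO (orange), drawn separately for grp 1 and grp 2; bars are means and whiskers ± SD (n = 4 libraries). Gbp7 in grp 2 lies at 33.8 to 43.0 CPM with the control ASO and 45.6 to 54.6 CPM with the mixture, while Irgm2 overlaps in both groups.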

How the data were processed

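Gene counts were deposited by the authors as raw count tables for the age series, the WT ASO set and the SgshKO ASO set, and the deposited TPM values cover the age series only. The authors' batch-corrected signal tables, also deposited, served as an alternative for the ASO sets. STAR 2.5.3a, kallisto 0.44.0, HOMER 4.11, DESeq2 1.36.0 and R 4.2.3 with build mm10 are named in the submitters' processing notes, with no role for each tool given in the sources used here.

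Each table was fitted whole in edgeR 4.0.16 (R 4.3.3; TMM scaling, filterByExpr with a minimum count of 10, quasi-likelihood F test), with Benjamini-Hochberg adjustment over all genes and a threshold of 0.05. The age-series model held all 6 groups. The ASO models added a term for the numbered group. CPM values use the TMM-scaled library sizes. Alternatives were DESeq2 1.42.0, limma 3.58.1 on log2(TPM + 1) or on the signal, other filters and scaling, a replicate block, fewer groups and leaving out each library. The fit was tested on simulated counts. Promoters came from RefSeq, and that of Iigp1 was not searched. The text names all members, all other IRG and GBP genes, Irf1, up to 3 genes per list with the lowest adjusted p at 4 and at 8 months, and the 5 genes nearest to Irgm2. Members and lists were chosen with earlier results of these data known. One gene that this rule names is not reported here.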

Additional observations from a re-analysis of the deposited data

Results flagged for a closer look

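A value far from the rest of its group was found in 6 of 73 combinations of a member and a group of 4 to 10 libraries, where chance marks about 1 in 20. Library 4 of WT at 8 months was high for Gbp7 (293.7 CPM, the others 119.7 to 148.0) and Irgm2 (41.5 CPM, the others 31.1 to 31.8). Library 7 of SgshKO at 8 months was low for Gbp3 (5.42 CPM, the others 10.4 to 13.6) and Irgm2 (61.2 CPM, the others 73.4 to 82.6). In the WT ASO set, Irgm1 was low in PBS library 1 (49.6 CPM, the others 67.2 to 70.5) and high in Mitf ASO library 2 (72.1 CPM, the others 60.2 to 61.5).

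The SgshKO effect differed between ages for Igtp, by 0.66 on the log2 scale from 3 weeks to 8 months (edgeR, adjusted p = 0.017). For Irgm2 it differed by 1.59 from 3 weeks to 8 months and by 1.94 from 4 to 8 months, a description, since the 4-month and 8-month values chose the gene.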

How the results depend on the processing

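The counts in this section include Irgm2, whose 4-month and 8-month values chose it and are a description, not a test. Irgm2 is the 1 as reported at 4 months, for the change of effect from 4 to 8 months, and from 4 to 8 months in WT. The number of members called at 4 months, 1 as reported, was 3 with no filter on low counts, 2 with a minimum count of 50 and 2 with DESeq2. It was 3 with limma on log2(TPM + 1), 2 on log2(TPM + 0.1), 2 on log2(TPM + 1) with no filter and 3 with only the ages compared in the fit. At 3 weeks, 1 as reported (Irgm2) became 3 with only the ages compared (Irgm2, Gbp3 and Gbp7). From 4 to 8 months in WT, 1 became 2 with no filter and 2 with the Ddx3y to Xist term. The change of effect from 4 to 8 months gave 2 with DESeq2 (1 as reported), and that from 3 weeks to 8 months gave 1 on log2(TPM + 1) with no filter (2 as reported). From 3 weeks to 4 months in SgshKO, 2 became 4 with only the ages compared. Mitf ASO in WT, 0 as reported, gave 1 on the batch-corrected signal and 1 with only the 2 groups compared. The ASO mixture in SgshKO, 3 as reported, gave 5 with DESeq2, 5 on the batch-corrected signal, 1 with no grp term, 0 with only grp 1 and 1 with only grp 2. Fewer libraries enter the last 2 fits, and for the rest the cause was not tested. Over the settings other than leaving out 1 library, the share of all genes called moved too. It was 6.11% to 13.2% at 3 weeks, 12.5% to 26.4% at 4 months and 26.8% to 50.9% at 8 months. For changes of effect it was 5.21% to 12.2% (3 weeks to 8 months) and 0.147% to 1.33% (4 to 8 months). It was 4.16% to 7.48% from 4 to 8 months in WT and 20.5% to 36.8% from 3 weeks to 4 months in SgshKO. With Mitf ASO it was 2.05% to 14.5%, and with the mixture 1.81% to 13.6%.

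With the replicate number as a replicate block, 2 members were called at 3 weeks, 3 at 4 months, 1 from 3 weeks to 4 months in SgshKO and 1 from 4 to 8 months in SgshKO, and the count was within 1.5 times of the reported one in the other comparisons. The age-series numbers do not pair the libraries (correlations of -0.171 to 0.115). In the WT ASO set 38 of 40 pairs exceeded 0.1 and the fit with no replicate block called 0 members in each comparison, as with it. In the SgshKO ASO set 5 of 8 pairs exceeded 0.1, and the block called 4 members.

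Leaving out 1 library at a time, the number of called members was 1 to 2 at 3 weeks, 1 to 5 at 4 months, 4 to 6 at 8 months, 0 to 0 for the change from 3 weeks to 4 months, 1 to 3 from 3 weeks to 8 months and 1 to 2 from 4 to 8 months. Within WT it was 1 to 1 and 1 to 2 for the 2 age steps, and within SgshKO 1 to 3 and 1 to 4. It was 0 to 0 for the control, Tfeb and Tfe3 ASOs, 0 to 1 for Mitf ASO, and 3 to 4 for the mixture. No member called as reported changed sign in any setting run. With 2 libraries per genotype, 4 months has the least support. In the fits without 1 library, the share of all genes called was 6.07% to 10.1% at 3 weeks and 36.5% to 41.9% at 8 months. For the change from 3 weeks to 8 months it was 6.49% to 10.5%. It was 6.04% to 14.3% with Mitf ASO and 6.42% to 10.7% with the mixture. Some fits leave 1 library in a 4-month group, so only shares as reported are given there. These are 19.5% at 4 months and 0.391% for the change from 4 to 8 months.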
